A study of Homo sapiens with 2 samples.

Results

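The peaks of RUNX2 and MTA1 were examined at 8 genes of the death receptor and initiator caspase machinery, out of 20037 protein-coding genes on chromosomes 1 to 22, X and Y. The members were the receptors FAS, TNFRSF10A and TNFRSF10B, the adaptor FADD, the initiator caspases CASP8, CASP10 and CASP9, and the caspase-8 inhibitor CFLAR. They were chosen by gene symbol, and every peak inside one of these genes or within 20 kb of it was taken, with its position, its score and its overlap with the other list. The series holds 1 library made with an antibody against RUNX2, a runt-domain transcription factor, and 1 with an antibody against MTA1, a chromatin protein of the NuRD corepressor. Both used MDA-MB-231, a human cell line derived from breast cancer that lacks oestrogen, progesterone and HER2 receptors, and the labels give no treatment or genotype that differs between them. The labels and the study's methods name CUT&Tag, in which a transposase is tethered to chromatin through the antibody, but the labels also describe the ligation of adaptors to immunoprecipitated DNA, so how the fragments were made is uncertain. Neither library had a replicate or a control analysed here, so no test was run. The number of reads per library is unknown, and intervals cover the counting of peaks only. Distances in kb run from the centre of a peak unless its edge is named, and distances in bp from its nearest edge.

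Death receptors are cell surface proteins that carry a death domain inside the cell. Ligand binding draws the adaptor FADD to the receptor, FADD draws procaspase-8 or procaspase-10 through their death effector domains, and the clustered proenzymes activate each other. CFLAR, also called c-FLIP, has the same domains but lacks caspase activity and competes for the same platform. CASP9 starts the separate mitochondrial pathway, in which it is activated on the apoptosome. Breast cancer cells can lose sensitivity to these ligands through changes at several of these steps.

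The RefSeq promoter table (GRCh38.p14) held 13 start windows for 5 of the 8 genes, each with 250 bases before a transcription start and 50 bases from it on. A RUNX2 peak lay on a window of 5 of these 5 genes and an MTA1 peak on a window of 4, against 44.9% and 48.4% of 15843 protein-coding genes in that table. Both lists had a peak on the same window in 4 genes, against 40.7%. A gene with more windows has more chances of a peak, and the table held 22199 windows for the 15843 genes. By window, 8 of the 13 carried a RUNX2 peak and 7 an MTA1 peak, and the share of all windows with a peak was not computed. The 4 windows printed first, each from a different gene, hold bases under both peaks, which are in capitals. Such bases also lay in the downstream CASP9 window (161) and in a second FAS window (216), which are not printed. The CFLAR window carried a RUNX2 peak alone, whose bases are in capitals. In the window of the downstream CASP8 start both lists had a peak and no base was shared. Its first run of capitals lay under the RUNX2 peak and its second run under an MTA1 peak. The windows lie at chr2:201233213-201233512 (CASP8, plus strand), chr1:15524741-15525040 (CASP9, minus strand), chr11:70203046-70203345 (FADD, plus strand), chr10:88990548-88990847 (FAS, plus strand), chr2:201118466-201118765 (CFLAR, plus strand) and chr2:201257785-201258084 (CASP8 downstream start, plus strand).
CASP8: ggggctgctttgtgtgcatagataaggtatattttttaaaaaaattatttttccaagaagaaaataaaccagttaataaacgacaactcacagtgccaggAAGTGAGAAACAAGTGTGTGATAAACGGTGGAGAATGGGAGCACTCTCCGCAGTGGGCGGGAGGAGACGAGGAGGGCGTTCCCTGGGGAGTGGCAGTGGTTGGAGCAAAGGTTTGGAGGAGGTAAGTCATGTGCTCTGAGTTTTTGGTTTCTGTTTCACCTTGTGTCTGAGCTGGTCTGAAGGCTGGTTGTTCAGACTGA
CASP9: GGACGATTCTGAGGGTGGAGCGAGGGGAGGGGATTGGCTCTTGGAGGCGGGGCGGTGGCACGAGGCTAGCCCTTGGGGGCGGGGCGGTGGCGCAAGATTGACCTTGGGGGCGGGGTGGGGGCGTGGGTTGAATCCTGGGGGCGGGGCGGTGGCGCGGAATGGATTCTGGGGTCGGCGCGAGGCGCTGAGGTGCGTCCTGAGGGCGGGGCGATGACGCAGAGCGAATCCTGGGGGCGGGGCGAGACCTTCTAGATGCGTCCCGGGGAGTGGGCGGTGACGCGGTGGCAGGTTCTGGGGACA
FADD: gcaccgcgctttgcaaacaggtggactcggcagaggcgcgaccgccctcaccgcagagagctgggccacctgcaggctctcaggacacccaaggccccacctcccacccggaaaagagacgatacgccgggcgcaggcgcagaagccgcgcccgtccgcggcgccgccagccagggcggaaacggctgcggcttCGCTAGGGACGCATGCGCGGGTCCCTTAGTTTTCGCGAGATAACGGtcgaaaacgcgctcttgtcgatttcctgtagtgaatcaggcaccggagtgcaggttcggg
FAS: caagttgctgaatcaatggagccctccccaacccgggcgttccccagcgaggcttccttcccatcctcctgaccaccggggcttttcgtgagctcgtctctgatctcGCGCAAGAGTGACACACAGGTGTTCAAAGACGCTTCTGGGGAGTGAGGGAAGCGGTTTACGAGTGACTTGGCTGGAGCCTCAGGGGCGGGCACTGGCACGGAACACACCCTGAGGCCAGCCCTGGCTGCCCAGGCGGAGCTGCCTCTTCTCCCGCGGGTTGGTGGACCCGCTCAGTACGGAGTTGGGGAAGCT
CFLAR: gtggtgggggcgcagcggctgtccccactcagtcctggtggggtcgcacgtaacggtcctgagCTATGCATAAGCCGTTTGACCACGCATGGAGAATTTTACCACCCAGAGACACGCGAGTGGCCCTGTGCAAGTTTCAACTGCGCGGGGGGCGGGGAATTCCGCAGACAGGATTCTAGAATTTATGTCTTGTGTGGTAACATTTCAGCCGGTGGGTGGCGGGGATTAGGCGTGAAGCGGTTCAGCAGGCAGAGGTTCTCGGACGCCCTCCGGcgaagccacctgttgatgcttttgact
CASP8 downstream start: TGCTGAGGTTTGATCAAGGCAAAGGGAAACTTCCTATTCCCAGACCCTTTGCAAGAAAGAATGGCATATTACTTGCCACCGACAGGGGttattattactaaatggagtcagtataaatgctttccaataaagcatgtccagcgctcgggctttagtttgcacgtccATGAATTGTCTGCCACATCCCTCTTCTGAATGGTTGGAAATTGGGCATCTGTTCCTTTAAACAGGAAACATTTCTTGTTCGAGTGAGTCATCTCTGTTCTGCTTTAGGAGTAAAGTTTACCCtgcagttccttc

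The shared stretch covered 300 of the 300 bases at CASP9, 200 bases at CASP8, 193 at FAS and 46 at FADD. These windows differed in composition. The CASP9 window had 71.3% G and C with 30 CpG and the FADD window 66.7% with 36 CpG, while the CASP8 window had 46.3% with 6 CpG, below the median of all 35116 windows in the table (58.7% and 14 CpG). Peaks of both lists covered both a CpG-rich and a CpG-poor start. The core of the RUNX site was searched on both strands as TGTGGT and TGCGGT, which share no match. TGTGGT was found in 1 of the 13 windows, that of CFLAR, at positions -58 to -53 when the start base is 0, under the RUNX2 peak. TGCGGT was found in 2, at FADD and at the most downstream CASP8 start, in both cases outside any peak. Of all windows in the promoter set 13.1% held TGTGGT and 7.29% TGCGGT. None of the stretches under both peaks held either. TGANTCA, the form used for the AP-1 site, was found in 5 windows of 4 genes, against 7.71% of all windows. The letters were TGAATCA at FADD, CFLAR and FAS. They were TGAGTCA or its reverse complement TGACTCA in 2 CASP8 windows, a form held by 4.95% of all windows and counted after the matches had been read. At the downstream CASP8 start TGAGTCA lay at positions -1 to 5, under the MTA1 peak. The FADD match, at positions 21 to 27, also lay under an MTA1 peak. The matches at CFLAR, at FAS and at the most downstream CASP8 start did not lie wholly under a peak of either list. A match of letters does not show binding, and a window without one says nothing about the factor.

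In total 45 RUNX2 and 29 MTA1 peaks lay in or within 20 kb of the 8 genes, each counted once although some lay in the windows of neighbouring genes. All 8 genes had peaks of both lists there, which was also true of 76.9% of protein-coding genes (84.4% for RUNX2 and 79.7% for MTA1). The number of RUNX2 peaks ran from 2 at FAS to 11 at TNFRSF10B, and that of MTA1 peaks from 2 at FAS to 7 at CFLAR. Per 10 kb of gene and flanks the median was 0.608 RUNX2 and 0.484 MTA1 peaks, against 0.357 and 0.248 over all protein-coding genes, and 7 of the 8 genes were above that median in each list. FADD was the densest of the 8 genes with 1.59 RUNX2 peaks per 10 kb, above 99.1% of protein-coding genes, followed by TNFRSF10B with 1.24 and CFLAR with 0.995. This density counts peaks of any rank. Those of FADD included peaks of the narrowest width in the list, downstream of the gene, with score percentiles of 2.26 and 4.94. FAS was the sparsest with 0.215 in each list. By nearest edges, the farthest peak taken was a RUNX2 peak 19.9 kb from TNFRSF10B (score percentile 69.0), and the nearest one left out an MTA1 peak 20.1 kb from the same gene (percentile 51.5).

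**Figure D1:**
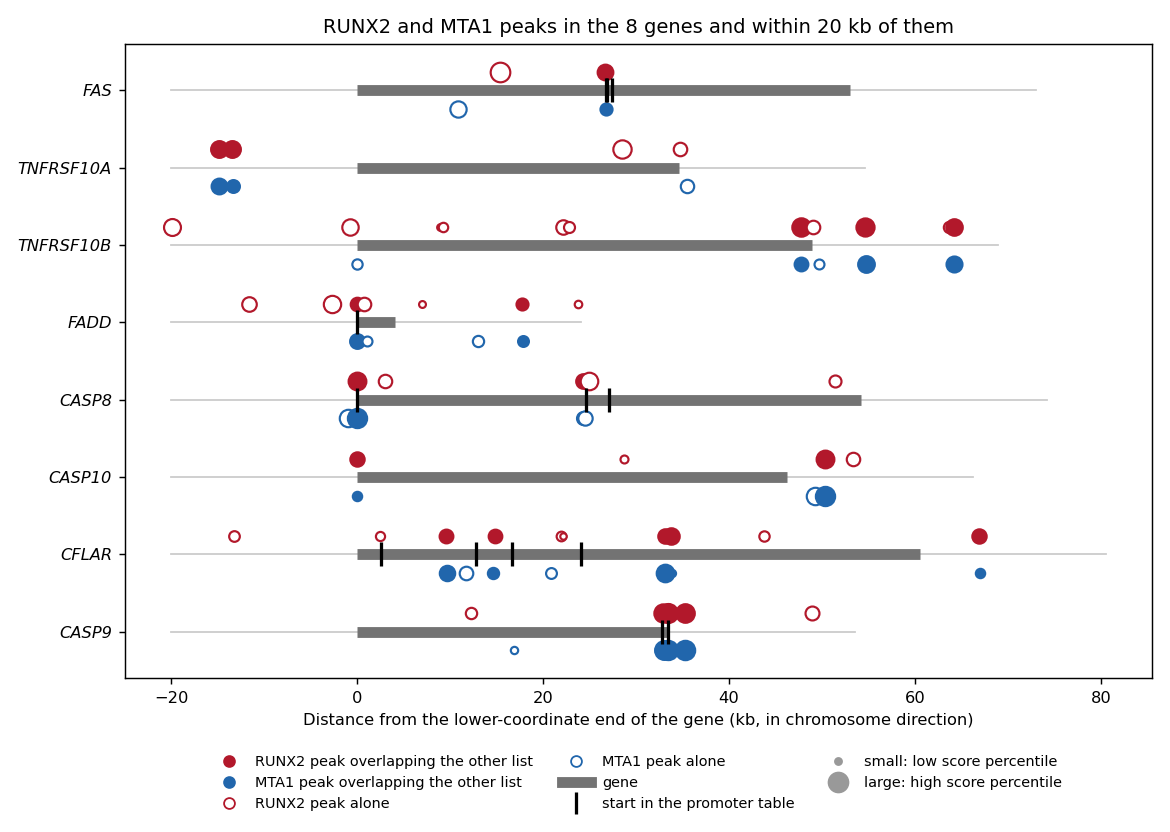
Peaks of both lists along the 8 genes. The horizontal axis is the distance from the lower-coordinate end of each gene in kb. Grey bars are genes with 20 kb on either side as thin lines, black ticks are starts in the promoter table (none is drawn for CASP10, TNFRSF10A and TNFRSF10B), red circles above the bars are RUNX2 peaks and blue circles below them MTA1 peaks, larger for a higher score percentile and filled where they overlap the other list. Overlapping pairs sit at the starts of FAS, FADD, CASP8 and CASP9, while TNFRSF10A has overlapping pairs only 13 to 15 kb outside the gene.

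Scores were read only as ranks, given as the percentage of peaks in the same list with a lower score. The median percentile of the peaks at the 8 genes was 43.2 for RUNX2 and 40.5 for MTA1, and 28 of 45 RUNX2 and 18 of 29 MTA1 peaks were below 50. The highest decile of the list held 1 of the RUNX2 peaks, the one upstream of the tabulated FAS starts (96.3). It held 3 of the MTA1 peaks, at the CASP8 start (92.4), the CASP9 start (92.1) and the neighbouring DNAJC16 start (93.6). Of the RUNX2 peaks at the 8 genes 18 (40%, 95% exact binomial interval 25.7% to 55.7%) shared at least 1 base with an MTA1 peak, against 45.4% of the 61700 peaks in the list. Conversely 18 of the MTA1 peaks (62.1%, 42.3% to 79.3%) overlapped a RUNX2 peak, against 65.5% of 42683. The intervals include the shares of the whole lists, but a difference was not tested. They treat peaks as independent, although 16 of the RUNX2 and 11 of the MTA1 peaks lay in 212 kb around CFLAR, CASP10 and CASP8. The 18 pairs shared between 35 and 538 bases, with a median distance between centres of 23.3 bp. The MTA1 peak had the higher percentile in 7 of the 18 pairs, and in 42.7% of 28440 pairs over the genome.

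**Figure D2:**
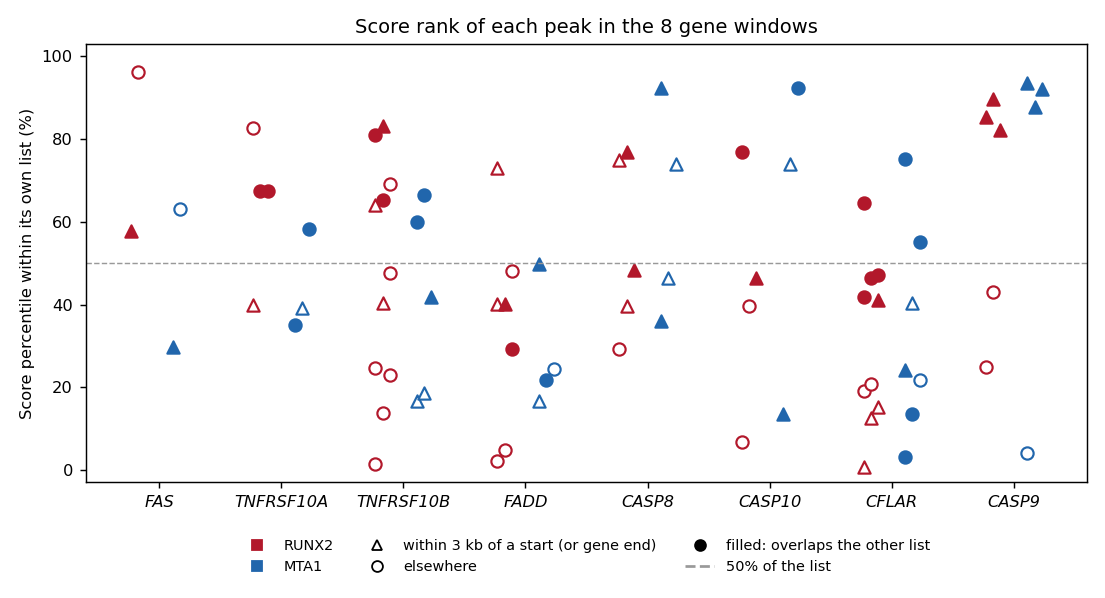
Score percentile of each peak within its own list, by gene. Red is RUNX2 and blue MTA1, triangles lie within 3 kb of a start (or of either gene end where no start was tabulated) and circles elsewhere, and filled symbols overlap the other list. All 3 CASP9 start peaks of each list are above 80%, and the highest RUNX2 value, 96.3%, is an open circle at FAS. A peak in the windows of neighbouring genes is drawn at each.

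With a window of 3 kb around a start, all 8 genes had a RUNX2 peak (57.2% of protein-coding genes), all 8 an MTA1 peak (57.3%) and all 8 both (50%). An overlapping pair was there in 7 of the 8, against 46.9%, with TNFRSF10A as the exception. For CASP10, TNFRSF10A and TNFRSF10B the table held no start, and both gene ends were used. The median percentile of the strongest start peak was 65.3 for RUNX2, against 71.3 over all genes with one, and 45.8 for MTA1, against 74.7. When the lower-scoring part of each list, below its median, was removed, 5 of the 8 genes had a RUNX2 start peak (42.3% of genes), 3 had an MTA1 start peak (42.9%; 1 of these, CASP10, through a peak near the start of CASP8) and 2, CASP8 and CASP9, had both (35.4%). With the top 10000 peaks by score 1 had a RUNX2 peak (16.6%), 2 had an MTA1 peak (27.2%) and only CASP9 had both (13.7%). Within 1 kb of a start 7 genes had both, against 44.3%, and the MTA1 peaks near CFLAR were lost. The strongest RUNX2 peak of the whole gene window was within 3 kb of a start in 4 of the 8 genes (34.6% of genes with a peak), and the strongest MTA1 peak in 3 of the 8 (42.4%). Some of these lay off the start itself. The RUNX2 peaks of FADD and TNFRSF10B were 2.69 and 1.11 kb from the start or gene end, and the MTA1 peak of CASP9 was the one beside DNAJC16, 1.91 kb away.

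FAS, the receptor of FAS ligand, had an overlapping pair at the promoter and its highest-ranked peaks elsewhere. The RUNX2 peak at chr10:88990562-88990928 (score 7.68, percentile 57.7) spanned an annotated start and overlapped the MTA1 peak at chr10:88990655-88990879 (5.79, percentile 29.7) over 225 bp. The RUNX2 peak of highest score among all 8 genes lay 11.4 kb upstream of the nearest FAS start, at chr10:88979290-88979500 (37.0, percentile 96.3). No MTA1 peak overlapped it. An MTA1 peak without a RUNX2 peak lay farther upstream, 15.9 kb from that start, at chr10:88974758-88975026 (9.72, percentile 63.0). All 4 peaks lay inside the annotated span of FAS. They also lay inside ACTA2, the smooth muscle actin gene that overlaps this span. The gene to which the upstream peaks belong thus cannot be told apart by position.

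TNFRSF10A and TNFRSF10B encode the receptors of the TRAIL ligand, DR4 and DR5. Both lie on chromosome 8 and differed in how many peaks they held, 4 RUNX2 and 3 MTA1 peaks at TNFRSF10A against 11 and 5 at TNFRSF10B. At TNFRSF10A, the end next to its named divergent transcript carried a RUNX2 peak of the narrowest width at chr8:23225128-23225226 (score 5.35, percentile 39.9), 26 bp outside the gene. The MTA1 peak there, at chr8:23225804-23225966 (6.39, percentile 39.1), lay 702 bp outside and did not overlap it. The strongest RUNX2 peak was 6.12 kb inside that end, at chr8:23218871-23219093 (16.2, percentile 82.7), again without MTA1. Pairs were found only beyond the other end of the gene, at distances of 14.9 and 13.4 kb, where the RUNX2 peaks had a percentile of 67.5 each and the MTA1 peaks 58.4 and 34.9. These pairs also lay within 20 kb of the decoy receptor gene TNFRSF10D.

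At TNFRSF10B the strongest RUNX2 peak, at chr8:23067824-23068023 (score 16.7, percentile 83.2), lay 1.11 kb inside the upper end of the gene and overlapped an MTA1 peak of the narrowest width (6.63, percentile 41.7). A second pair lay 5.73 kb outside that end within the antisense transcript TNFRSF10B-AS1, with percentiles of 80.9 and 66.5, and another 15.3 kb outside it at LOC254896, with 65.3 and 60.1. The latter was also within 20 kb of TNFRSF10C. Nearest to the upper end the lists again did not overlap, with a RUNX2 peak 96 bp outside it (percentile 40.3) and an MTA1 peak 731 bp outside it (percentile 16.6). The 4 RUNX2 peaks deep inside the gene had percentiles of 1.51 to 47.5 and none overlapped an MTA1 peak. At the lower end, where RHOBTB2 lies, a RUNX2 peak (percentile 64.0) and an MTA1 peak (18.7) did not overlap.

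FADD, the adaptor that links the receptors to caspase-8, is a short gene of 4.1 kb on chromosome 11 with 7 RUNX2 and 4 MTA1 peaks. The pair at its start was of middle rank: the RUNX2 peak at chr11:70203187-70203285 (score 5.39, percentile 40.1) ended 11 bp before the start and overlapped the MTA1 peak at chr11:70203240-70203356 (7.55, percentile 49.8) by 46 bp. The strongest RUNX2 peak, at chr11:70200531-70200675 (11.3, percentile 72.9), was 2.69 kb upstream and had no MTA1 partner. Inside the gene a RUNX2 peak at 0.78 kb (percentile 40.1) and an MTA1 peak at 1.02 kb (percentile 16.7) from the start did not overlap. The other pair lay 17.8 kb downstream, with percentiles of 29.3 and 21.8. Just outside the 20 kb limit a RUNX2 and an MTA1 peak of much higher rank lay 26.1 kb (nearest edge) from the gene, with percentiles of 85.4 and 84.4.

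CFLAR, CASP10 and CASP8 follow each other on chromosome 2, with 6.45 kb between CFLAR and CASP10 and 4.06 kb between CASP10 and CASP8. In the 212 kb from 20 kb below CFLAR to 20 kb above CASP8 there were 16 RUNX2 and 11 MTA1 peaks, of which 7 in each list overlapped the other. The highest percentiles of both lists stood at the upstream CASP8 start. There the RUNX2 peak at chr2:201233313-201233514 (score 13.02, percentile 76.9) lay within the MTA1 peak at chr2:201233285-201233549 (24.9, percentile 92.4), with centres 3.5 bp apart. A further MTA1 peak lay 1.05 kb upstream, at chr2:201232329-201232506 (12.6, percentile 73.9), and had no RUNX2 peak. At the downstream start, 24.6 kb inside the gene, a pair of lower rank (percentiles of 48.4 and 36.0) was flanked by an MTA1 peak across the start (46.3) and by a RUNX2 peak 0.41 kb past it, at chr2:201258309-201258580 (12.1, percentile 74.9). The window of the most downstream start held no peak.

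CASP10, the paralogue of CASP8, had only weak peaks of its own. A RUNX2 peak at chr2:201183028-201183142 (score 6.25, percentile 46.3) and an MTA1 peak of the narrowest width at chr2:201183108-201183223 (4.70, percentile 13.5) shared 35 bp at the lower end of the gene, the smallest overlap of the 18 pairs. Inside the gene there was 1 more peak, of RUNX2, with a percentile of 6.85. The higher values in its window came from peaks at CASP8 or between the genes: the MTA1 peak of percentile 73.9 lay 2.92 kb by its edge beyond the upper end of CASP10 and 0.957 kb from the CASP8 start. Which end of CASP10 is its start was not given by the tables used.

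CFLAR was the gene with the most peaks of the 3, 10 RUNX2 and 7 MTA1, and its most upstream start carried only a low-ranked one. The RUNX2 peak across that start, at chr2:201118529-201118738, had a score of 3.89 and a percentile of 12.5, and the nearest MTA1 peak to any CFLAR start was 1023 bp away from the second start, at chr2:201127798-201127942 (percentile 40.5). The strongest peaks of both lists lay deep inside the gene, where it overlaps CFLAR-AS1. Here, 9.02 kb past the last start, a RUNX2 peak (score 6.36, percentile 47.3) lay within an MTA1 peak (13.1, percentile 75.2). A neighbouring pair at 9.69 kb had the reverse order, with percentiles of 64.4 for RUNX2 and 3.21 for MTA1. In the pair 3.1 kb by its edge before the second start, the percentiles were 41.8 for RUNX2 and 55.2 for MTA1. The pair through which CFLAR counted as having one within 3 kb of a start shared 42 bp. Its percentiles were 41.0 for RUNX2 and 24.3 for MTA1, with centres 1.83 and 1.86 kb from the nearest start.

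**Figure D3:**
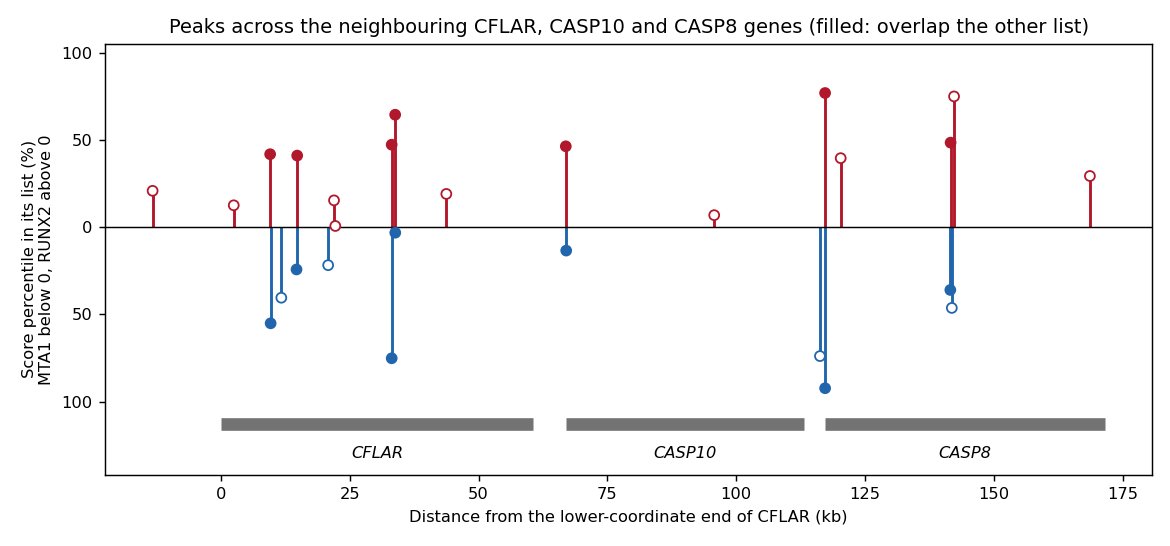
Peaks across the neighbouring CFLAR, CASP10 and CASP8 genes. The horizontal axis is the distance from the lower-coordinate end of CFLAR in kb; stems above 0 give the score percentile of RUNX2 peaks and stems below 0 that of MTA1 peaks, filled dots overlap the other list and grey bars are the genes. The tallest stems of both lists, 76.9% and 92.4%, stand at the upstream start of CASP8.

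CASP9, the initiator of the mitochondrial pathway, had the highest RUNX2 start percentile of the 8 genes. For MTA1 the percentile was 92.1 at its own start and 92.4 at that of CASP8, and the highest value in the CASP9 start window (93.6) belonged to the peak beside DNAJC16. At its upstream start the RUNX2 peak at chr1:15524567-15525124 (score 22.9, percentile 89.7) and the MTA1 peak at chr1:15524587-15525146 (24.5, percentile 92.1) shared 538 bp. A second pair lay at the downstream start, chr1:15524238-15524447 for RUNX2 (16.0, percentile 82.3) and chr1:15524287-15524447 for MTA1 (20.2, percentile 87.9). The third pair, at chr1:15526530-15526862 (18.3, percentile 85.3) and chr1:15526508-15526886 (26.7, percentile 93.6), was 1.91 kb upstream of CASP9 and 152 and 151 bp, centre to start, from DNAJC16, the neighbouring gene. Other peaks in this window were weak and did not overlap: RUNX2 peaks had percentiles of 25.0 and 43.2, and the MTA1 peak inside the gene 4.05.

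A list of 33 other genes of the pathway was counted in the same way. Both lists had a start peak at 22 of them, against all 8 of the genes above and 50% of protein-coding genes. No start peak of either list was found at 9, and the share of all genes with neither was not computed. All 5 adaptors and kinases, all 6 inhibitors of apoptosis proteins and their antagonists, all 4 caspase substrates or cleavage targets and both apoptosome genes had both. Of the 4 ligand genes none did, and 3 (FASLG, TNF and LTA) had neither. Of 5 further receptors 2 had both, while TNFRSF1A, the main TNF receptor, and the decoy receptor TNFRSF10C had neither. Of 7 further caspases 3 had both, and CASP1, CASP4, CASP5 and CASP14, which act in inflammation or in skin, had neither. Genes without a start peak could hold peaks elsewhere. Inside the gene or within 20 kb, 31 of the 33 had a RUNX2 peak (84.4% of all genes) and 30 an MTA1 peak (79.7%). Among the 4 ligand genes the highest percentiles there were 97.6 at FASLG for RUNX2 and 91.9 at TNF and LTA for MTA1. At TNFRSF1A they were 90.6 for RUNX2 and 94.3 for MTA1, while CASP5 had no peak. The highest start percentiles in the RUNX2 list were at RIPK1 (98.6), HTRA2 (98.3), DIABLO (97.1) and DAXX (96.4), and in the MTA1 list at CYCS (99.96), DAXX (99.6), DIABLO (99.3) and HTRA2 (98.2). CYCS encodes cytochrome c, while DIABLO and HTRA2 encode mitochondrial antagonists of the inhibitors. Of the 8 genes above, CASP9 and CASP8 alone had MTA1 start percentiles over 90, and none had a RUNX2 start percentile over 90. Start peaks often ranked high in their list. Among all protein-coding genes with an MTA1 start peak, the CASP9 value exceeded 81.4% and the CASP8 value 78.7%. The RUNX2 start value of CASP9 exceeded 81.7% of genes with a RUNX2 start peak. Over the 33 genes the median start percentile was 78.4 for RUNX2 and 65.5 for MTA1 where a peak was present.

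**Figure D4:**
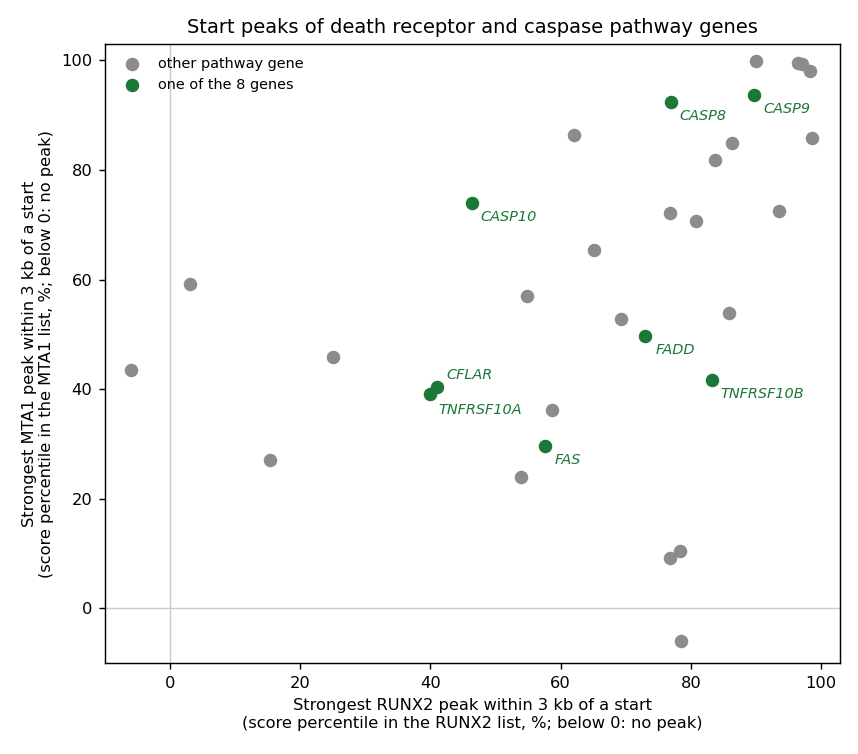
Strongest start peak of each gene in the RUNX2 list (horizontal axis, score percentile) and in the MTA1 list (vertical axis, score percentile); values drawn below 0 mean that the list had no start peak, and genes without either are not drawn. Green points are the 8 genes and grey points the other pathway genes; the start is within 3 kb of a tabulated start, or of either end where none was tabulated. CASP9 and CASP8 have the highest MTA1 values of the 8 genes, while FAS, TNFRSF10A, TNFRSF10B and CFLAR have MTA1 values below 42%; the MTA1 value of CASP10 is that of a peak between it and CASP8, and that of CASP9 of the peak beside DNAJC16.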

How the data were processed

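For RUNX2 and for MTA1 the authors deposited a peak table with positions, names and a score per peak, whose scale is not given in the sources used here. The submitters' processing notes name CASAVA 1.4, Bowtie 0.12.8, MACS and MACS2 without roles, and the build hg19. Since 140 RUNX2 and 122 MTA1 peaks lie past the hg19 end of chromosome 17, positions were read as GRCh38 and matched to RefSeq genes and promoter windows of GRCh38.p14. Per the labels a CUT&Tag kit was used, but they also describe end polishing and adaptor ligation of ChIP DNA, and they name another antibody supplier than the study's antibody list, so the preparation is uncertain. Mitochondrial peaks were left out. Positions are 1-based, and peaks sharing at least 1 bp overlapped.

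A start was any start in the promoter table or, for 4194 of 20037 protein-coding genes including 3 of the 8, either gene end, which gives such genes an extra chance of a peak. Exon structure was not used. An absent peak may be a weak one. The steps were tested on simulated data. The genes, lists and alternatives were chosen with earlier results of these data known. All 8 genes were named and, of the pathway list, those without a start peak and the 4 of highest percentile in each list. Alternatives varied the windows, score, width, merging and overlap rule. Software: Python 3.11.15, numpy 2.4.6, pandas 2.3.3; intervals from scipy 1.17.1; figures from matplotlib 3.10.9.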

Additional observations from a re-analysis of the deposited data

How the results depend on the processing

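With a gene window of 5 kb, a start window of 1 kb, merging of peaks within 500 bp, removal of peaks of the narrowest width, a shared stretch of 50% or more in both peaks, or centres within 200 bp, the counts stayed within 1.5-fold and the shares and median percentiles within their 95% intervals. The most upstream start alone, an alternative added after seeing the data, could be applied to the 5 genes with tabulated starts. Of these CFLAR lost its MTA1 start peak, and the share over all genes was not computed. Only the filters on score moved results. Removing peaks can only lower a count, so the gene counts are given beside the share of all protein-coding genes under the same filter. Without the peaks scoring below their list's median, 17 RUNX2 and 11 MTA1 peaks were left at the 8 genes. Then 5 genes had a RUNX2 start peak (42.3% of all genes), 3 an MTA1 start peak (42.9%) and 2 both (35.4%). Without the filter all 8 genes had both, against 50% of all genes. On 8 genes, of which CFLAR, CASP10 and CASP8 are neighbours, a difference from the share of all genes was not tested in either setting. With the top 10000 peaks by score, 3 RUNX2 and 4 MTA1 peaks were left, and 1, 2 and 1 genes had such start peaks (16.6%, 27.2% and 13.7% of all genes). In that setting 66.7% of the RUNX2 peaks overlapped, on 3 peaks, and the median percentile within the shortened lists was 36.6 for RUNX2 and 66.8 for MTA1. The depth of neither library is known, so whether a site listed once is empty in the other library was not detectable. No paired analysis was possible because each antibody had 1 library and no result came from a test.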

Other observations

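Of the 45 RUNX2 peaks 13 (28.9%) had the narrowest width of the list, 99 bp, against 31.7% over the genome, and 2 of those 13 overlapped an MTA1 peak (15.4%, 95% exact interval 1.92% to 45.4%). Among the 32 wider ones 16 did (50%, 31.9% to 68.1%). Over the whole list these shares were 12.4% and 60.7%. Of the 8 MTA1 peaks of the narrowest width, 116 bp, 4 overlapped a RUNX2 peak (50%, 15.7% to 84.3%), and of the 21 wider ones 14 did (66.7%, 43.0% to 85.4%), against 28.1% and 78.6% over the list. At the 8 genes the intervals of the width classes overlapped in both lists, and the difference was not tested.

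Some scores were shared exactly. The RUNX2 pair members beyond TNFRSF10A, 234 and 517 bp wide, had the same score of 9.71, which 9 peaks of the list carry. The RUNX2 peaks before and inside FADD had the same score of 5.39, carried by 25 peaks, although one was 99 bp wide and the other 250 bp. The score of 5.22, at FADD and at CASP8, was carried by 6168 RUNX2 peaks, so a rank within such a group is not resolved.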
